A study of Mus musculus with 14 samples.

Results

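Among the genes that the transcription factor NF-κB is known to switch on are genes for secreted and surface proteins of inflammation, and 9 of them are described here across mouse hematopoietic stem cell-enriched bone marrow cells exposed to interleukin-1 beta (IL-1β). They were chosen by name from the deposited count table as NF-κB target genes for cytokines, chemokines, an adhesion molecule and survival proteins: Tnf, Il6, Ebi3, Ccl3, Ccl4, Cxcl10, Icam1, Traf1 and Birc3, which are 9 of the 24833 genes in the table. The cells were SLAM cells from the marrow of C57BL/6 mice, sorted as LSK cells that lack Flk2 and CD48 and carry CD150. The mice received 0.5 µg of IL-1β a day by intraperitoneal injection for 1 day (3 libraries) or 20 days (4 libraries), and their controls received phosphate-buffered saline (PBS) for 1 day (3 libraries) or 20 days (4 libraries). All 4 groups share strain, tissue and sort, and each library is a separate pool of cells from 3 to 5 mice, so a value is an average over animals. No other genotype, allele or agent is named in the labels, and the sources used here do not state the age or sex of the mice.

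IL-1β binds the IL-1 receptor and signals through MyD88 and IRAK kinases to the IKK complex, which releases NF-κB dimers from their inhibitors so that they enter the nucleus. The genes they switch on include secreted signals (TNF, IL-6 and chemokines), adhesion molecules that let leukocytes attach, and proteins such as cIAP2 and TRAF1 that bind TNF receptor complexes and protect the cell from death signals. Most of these are best known from macrophages, stromal cells and endothelium, and hematopoietic stem and progenitor cells are also known to respond to IL-1 through NF-κB.

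Libraries held 21654896 to 29441947 counts. Levels are counts scaled to a common library total (CPM) with edgeR's TMM factors, and 3 counts in a library, taken as the floor, equal 0.101 to 0.144 CPM. The titles fall into 4 naming sets whose meaning is not stated: "10k" (1 IL-1β and 1 PBS library of the 1-day groups), "E060216" (replicates 1 and 2 at 1 day), "E061316" (replicates 1 and 2 at 20 days) and an untagged set (replicates 3 and 4 at 20 days). Values below are listed by replicate number, with the 10k library as the last of each 1-day group. The gate genes Kit, Ly6a and Slamf1 and the stem cell genes Procr, Mecom, Hlf, Fgd5 and Hoxb5 had reads in all 14 libraries. Their sum was 1191 CPM with IL-1β and 1526 CPM with PBS in the 10k libraries, against 1825 to 2582 CPM in E060216. PBS 20-day replicate 4 had 1296 CPM of it, against 2002 to 2342 CPM in the other 20-day libraries. Summed Flt3 and Cd48, which the gate excludes, lay between 85.6 and 142 CPM in IL-1β 20-day libraries, against 43.5 to 64.0 CPM in PBS 20-day libraries. At 1 day the sum was 50.6 to 59.4 CPM with IL-1β and 45.6 to 66.9 CPM with PBS. Flt3 made up most of it. Cd48 alone was at 8.64 to 10.2 CPM with IL-1β and 3.78 to 6.01 CPM with PBS at 1 day. At 20 days Cd48 was at 3.40 to 9.24 CPM with IL-1β and 2.78 to 3.63 CPM with PBS. Some libraries stood apart. Both 10k libraries had far more of the immediate early gene Nr4a1 than any other (14168 counts with IL-1β and 20762 with PBS, against 377 to 1708 elsewhere), and IL-1β 20-day replicate 3 had 2365 CPM of summed neutrophil markers, where the other libraries had at most 15.5 CPM. Without both 10k libraries Ebi3, Ccl3, Ccl4 and Traf1, the genes called at 1 day, were lower at 1 day (edgeR adjusted p = 0.00390, 0.0262, 0.00462 and 0.0147).

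After 1 day of IL-1β, 4 of the 9 genes fell and none rose: the cytokine subunit gene Ebi3, the chemokine genes Ccl3 and Ccl4, and the TNF receptor adaptor gene Traf1, by 1.73 to 2.84 times. After 20 days the means of these 4 were above those of their controls without passing edgeR's test. The 1 gene that edgeR called at 20 days was Icam1, an adhesion molecule gene, 1.40 times lower with IL-1β. Cxcl10 was 3.50 times lower at 1 day and 3.59 times lower at 20 days, which DESeq2 called and edgeR's main fit did not. Tnf and Birc3 were called at neither duration by edgeR's main fit or by DESeq2. Il6 was near zero without IL-1β and had few reads in any library.

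These calls are set against the whole table. The 9 genes were chosen with earlier results of these data known, so the shares beside them, here and below, are a description and no test of the list. With edgeR's quasi-likelihood test and Benjamini-Hochberg adjustment over the 15466 genes tested (adjusted p below 0.05, naming set as a covariate), the 1-day comparison called 4.35% of all genes, 2.52% higher and 1.83% lower, and 4 of the 9 genes were lower. The IL-1β and PBS libraries did not overlap for 5 of the 9 (Ebi3, Ccl3, Ccl4, Cxcl10 and Traf1), against 17.7% of all genes. The median log2 fold change was -0.79 over the 9 and -0.01 over all genes. DESeq2 called 5 of the 9 at 1 day, adding Cxcl10, against 9.87% of genes. At 20 days edgeR called 7.46% of all genes, 3.94% higher and 3.52% lower, and 1 of the 9 was lower and none higher. Groups did not overlap for Il6 and Icam1, against 10.4% of all genes, and the median was 0.30 over the 9 and -0.00034 over all genes. DESeq2 called 4 of the 9 at 20 days (Icam1 and Cxcl10 lower, Ebi3 and Traf1 higher), against 12.3% of genes. All 9 genes passed the filter on low counts, Il6 through its IL-1β libraries alone, so its groups had to differ.

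**Figure D1:**
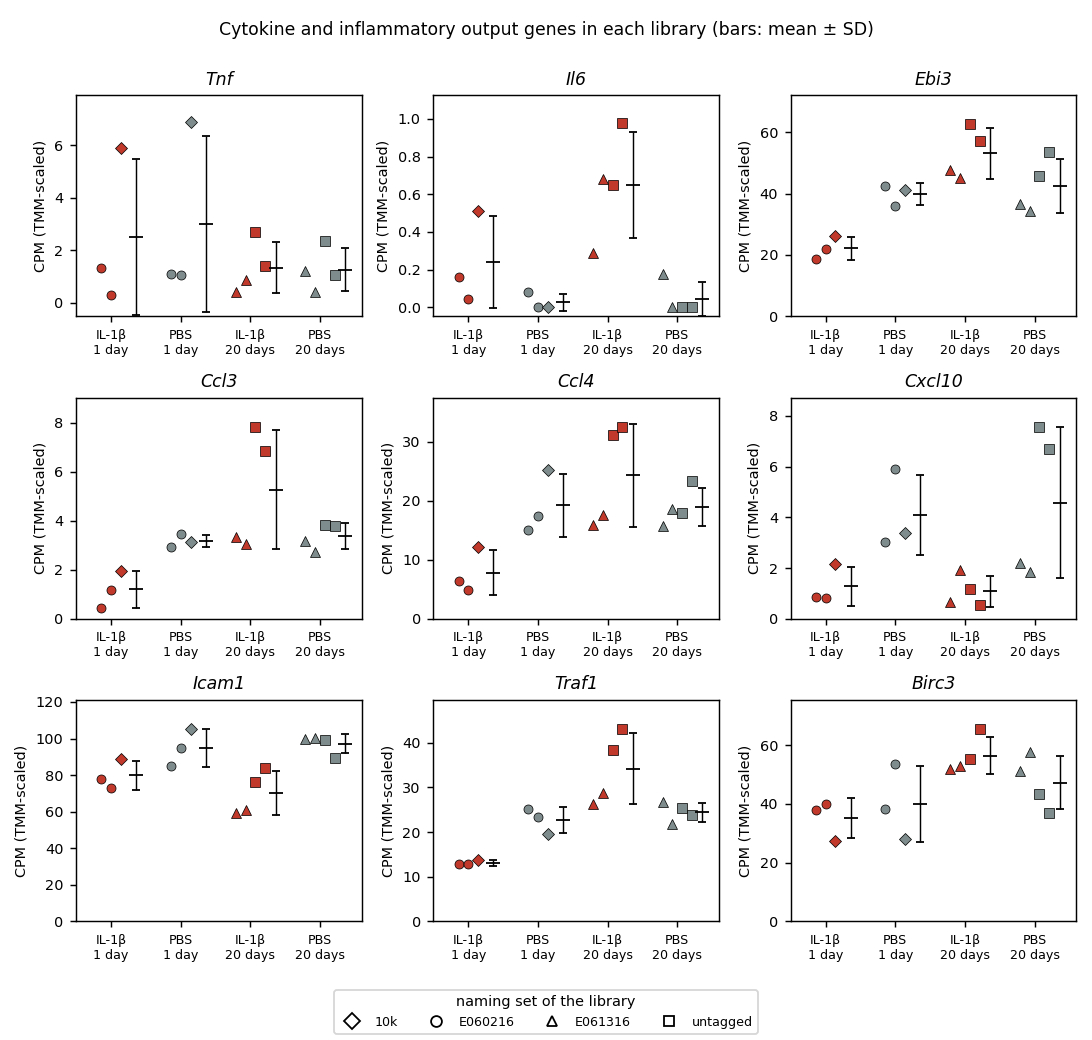
CPM (vertical axes, scaled by TMM factors) of each of the 9 genes in each of the 14 libraries, with IL-1β libraries in red, PBS libraries in grey, marker shape giving the naming set, and black bars the mean ± SD of the group. Ebi3, Ccl3, Ccl4, Cxcl10 and Traf1 libraries of the IL-1β 1-day group all sit below those of the PBS 1-day group, and Icam1 libraries of the IL-1β 20-day group all sit at or below 84.1 CPM, under every PBS 20-day library.

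Tnf (chromosome 17, 35199381 to 35202007, minus strand, GRCm38) encodes tumour necrosis factor, a cytokine that itself activates NF-κB. It was measured at 1.33, 0.289 and 5.88 CPM in IL-1β 1-day libraries, against 1.07, 1.06 and 6.88 CPM in PBS 1-day libraries. At 20 days it was at 0.395, 0.863, 2.69 and 1.41 CPM with IL-1β and 1.19, 0.400, 2.37 and 1.05 CPM with PBS. The highest value of each 1-day group belonged to its 10k library, the libraries that also led in Nr4a1, and IL-1β and PBS libraries overlapped at both durations. The log2 fold change was -0.34 ± 0.57 (SE) at 1 day and -0.02 ± 0.49 at 20 days, smaller than its SE at both. Neither difference passed edgeR's test (adjusted p = 0.822 and 0.991). Ltb, the gene for lymphotoxin beta, lies 3060 bases from Tnf, and was 1.28 ± 0.14 (SE, log2) lower with IL-1β at 1 day (edgeR adjusted p = 0.000269).

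Il6 (chromosome 5, 30013114 to 30019981, plus strand) encodes interleukin-6, a secreted cytokine that acts through the receptor chains Il6ra and Il6st. It had 4, 1 and 14 counts in IL-1β 1-day libraries, against 2, 0 and 0 counts in PBS 1-day libraries. At 20 days it had 8, 19, 15 and 25 counts with IL-1β, equal to 0.287, 0.683, 0.650 and 0.978 CPM, and 4, 0, 0 and 0 counts with PBS. Il6 was the 1 gene of the 9 with libraries at the floor: 7 libraries had 3 counts or fewer, of which 5 had none, and all 4 IL-1β 20-day libraries were above it. Summed over libraries, 67 counts with IL-1β stood against 4 with PBS at 20 days, a ratio of 16.1 after scaling to the totals (exact 95% interval 6.00 to 60.7, counting error only, since reads without molecular identifiers are not independent molecules). At 1 day 19 counts stood against 2 (ratio 9.09, interval 2.19 to 80.5), and 14 of the 19 came from the 10k library. Between libraries neither difference passed edgeR's test (adjusted p = 0.0738 at 20 days and 0.421 at 1 day). The 4 PBS counts at 20 days all lay in replicate 1. Without that library Il6 was at 0 in the PBS 20-day group and was called (edgeR adjusted p = 0.0323), but since it passed the filter through its IL-1β libraries, nothing is read from that call.

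Ebi3 (chromosome 17, 55952640 to 55957022, plus strand) encodes a secreted subunit that pairs with the p28 protein of Il27 to form interleukin-27, and with the p35 protein of Il12a to form interleukin-35. Its level was 18.5, 21.9 and 26.1 CPM in IL-1β 1-day libraries, against 42.6, 36.0 and 41.2 CPM in PBS 1-day libraries. After 20 days it was 47.6, 44.9, 62.6 and 57.2 CPM with IL-1β and 36.7, 34.4, 45.7 and 53.6 CPM with PBS. The 1-day groups were far apart, and the 20-day groups overlapped. Ebi3 averaged 22.2 ± 3.80 CPM with IL-1β and 39.9 ± 3.48 CPM with PBS at 1 day (SD, n = 3 each), and fell by 0.86 ± 0.12 on the log2 scale, or 1.81 times (edgeR adjusted p = 0.00120). It was lower in both naming sets (-0.66 in 10k and -0.96 in E060216, log2) and called in all 14 fits that left out 1 library. In bulk libraries, fewer cells that express a gene and less RNA per cell cannot be told apart. At 20 days the log2 fold change was 0.33 ± 0.11 (edgeR adjusted p = 0.0774; 0.0251 with DESeq2; 0.0452 with edgeR without PBS 20-day replicate 4). An antisense gene, Gm16712, overlaps 270 exon bases of Ebi3 and averaged 1.79 CPM with IL-1β and 3.74 CPM with PBS at 1 day, and 9.90 CPM with IL-1β and 5.94 CPM with PBS at 20 days. The library kit keeps no strand, so reads of the shared stretch cannot be told apart.

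Sequences upstream of transcription starts were read from RefSeq promoters (GRCm38.p6), which held 8 of the 9 genes, all but Ccl4. The κB consensus, the DNA element that NF-κB dimers are known to bind, was searched by its letters on both strands from 250 bases before to 50 bases after the start. Its letters were GGGRNNYYCC, where R is A or G, Y is C or T, and N is any base. A stretch that differs in 1 base, such as tggaaattcc before the start of Icam1, is not found by this search. The consensus matched in Il6, Ebi3 and Cxcl10, and in 8.459% of all 32851 promoters of that table. The 250 bases before the start of these 3 genes are shown because they hold the matches, with each match in capitals. In Cxcl10 the capitals nearest the left end mark GAAANNGAA, a core of interferon-stimulated response elements, which matched in 8.56% of all promoters. No κB match overlapped a GAAANNGAA match.
Ebi3, chr17:55952373-55952622, plus strand: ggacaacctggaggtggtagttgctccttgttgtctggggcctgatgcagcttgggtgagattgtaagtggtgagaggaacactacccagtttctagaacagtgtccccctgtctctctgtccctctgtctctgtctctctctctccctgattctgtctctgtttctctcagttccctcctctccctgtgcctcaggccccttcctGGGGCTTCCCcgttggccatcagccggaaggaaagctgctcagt
Il6, chr5:30012864-30013113, plus strand: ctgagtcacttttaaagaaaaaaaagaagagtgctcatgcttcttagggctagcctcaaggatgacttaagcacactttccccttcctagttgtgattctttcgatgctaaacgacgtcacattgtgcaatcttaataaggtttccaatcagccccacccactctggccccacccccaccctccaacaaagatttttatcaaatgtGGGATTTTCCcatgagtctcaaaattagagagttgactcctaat
Cxcl10, chr5:92348890-92349139, minus strand: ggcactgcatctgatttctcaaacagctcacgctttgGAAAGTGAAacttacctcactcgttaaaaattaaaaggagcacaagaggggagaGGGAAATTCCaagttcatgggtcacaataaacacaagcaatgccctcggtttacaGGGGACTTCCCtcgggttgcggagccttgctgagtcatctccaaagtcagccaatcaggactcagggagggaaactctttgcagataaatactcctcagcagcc
In Ebi3 the match at 44 to 35 bases before the start reads as the consensus on both strands, and another lies at 15 to 24 bases after it, past the stretch shown. Il6 has 1 match, also 44 to 35 bases before its start. Cxcl10 has 1 match at 159 to 150 bases before the start and overlapping matches between 104 and 94 bases before it. Ccl3 has GAAANNGAA on the strand opposite to the gene, 39 to 31 bases before the start, and no κB match. A match is a description of letters only. Of the 3 genes with a κB match, Ebi3 fell at 1 day, and Il6 and Cxcl10 passed edgeR's test at neither duration. Of the 5 searched genes without one, Ccl3 and Traf1 fell at 1 day and Icam1 at 20 days.

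Ccl3 and Ccl4 lie 13228 bases apart on chromosome 11 with no annotated gene between them (Ccl3 at 83647844 to 83649355 on the minus strand, Ccl4 at 83662584 to 83664683 on the plus strand). They encode the chemokines MIP-1α and MIP-1β, which attract leukocytes; MIP-1α binds the receptor encoded by Ccr1. Ccl4 was at 6.43, 4.87 and 12.2 CPM in IL-1β 1-day libraries, against 15.1, 17.4 and 25.2 CPM in PBS 1-day libraries. Ccl3 was at 0.442, 1.20 and 1.97 CPM with IL-1β and 2.94, 3.45 and 3.13 CPM with PBS at 1 day. For both genes every IL-1β 1-day library lay below every PBS 1-day library, with the 10k library the highest of the IL-1β group. Ccl4 fell by 1.36 ± 0.20 on the log2 scale, or 2.56 times, at 1 day (edgeR adjusted p = 0.00135), and was called in all 14 fits that left out 1 library. Ccl3 fell by 1.51 ± 0.39, or 2.84 times (edgeR adjusted p = 0.0433). The Ccl3 call was lost without any 1 of 10 libraries: replicate 1 or 2 of the IL-1β or of the PBS 1-day group, replicate 1, 3 or 4 of the IL-1β 20-day group, or replicate 1, 2 or 3 of the PBS 20-day group (adjusted p 0.0515 to 0.210). A fit without the naming set term ended both calls (adjusted p = 0.0751 for Ccl4 and 0.174 for Ccl3). The effect was smaller in the 10k set than in E060216 for both genes (-1.05 and -1.52 for Ccl4, -0.66 and -1.96 for Ccl3, log2), and that difference was not tested.

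At 20 days Ccl4 was at 15.9, 17.5, 31.2 and 32.6 CPM with IL-1β and 15.8, 18.7, 17.9 and 23.4 CPM with PBS, and Ccl3 at 3.34, 3.06, 7.85 and 6.85 CPM with IL-1β and 3.18, 2.72, 3.82 and 3.80 CPM with PBS. In the untagged set (replicates 3 and 4) both IL-1β libraries were above both PBS libraries for either gene. In E061316 (replicates 1 and 2) the Ccl3 and Ccl4 libraries lay close together. The log2 fold changes were 0.54 ± 0.32 for Ccl3 and 0.30 ± 0.17 for Ccl4, and neither passed edgeR's test (adjusted p = 0.375 and 0.350). The untagged libraries gave 0.63 for Ccl4 and 0.95 for Ccl3, and the E061316 libraries gave -0.04 for Ccl4 and 0.12 for Ccl3. Within the untagged set alone Ccl4 was called higher (edgeR adjusted p = 0.0487).

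Cxcl10 (chromosome 5, 92346638 to 92348889, minus strand) encodes IP-10, an interferon-inducible chemokine that attracts lymphocytes through Cxcr3. It was at 0.844, 0.825 and 2.15 CPM in IL-1β 1-day libraries, against 3.02, 5.91 and 3.37 CPM in PBS 1-day libraries, with no overlap. At 20 days it was at 0.682, 1.91, 1.17 and 0.548 CPM with IL-1β and 2.21, 1.84, 7.57 and 6.68 CPM with PBS. The 20-day PBS libraries split by naming set, with replicates 3 and 4 high and replicates 1 and 2 near the highest IL-1β library. The log2 fold change was -1.81 ± 0.61 at 1 day and -1.84 ± 0.55 at 20 days, and neither passed edgeR's test (adjusted p = 0.116 and 0.0555). DESeq2 called both (adjusted p = 0.0303 at 1 day and 0.00637 at 20 days). With edgeR the 20-day difference was also called without IL-1β 20-day replicate 2 (-2.48, adjusted p = 0.00742), without PBS 20-day replicate 2 (adjusted p = 0.0445), and without the IL-1β or the PBS library of the 10k set (adjusted p = 0.0491 and 0.0453). The 20-day log2 fold change was -3.05 over the untagged libraries (edgeR adjusted p = 0.00577) and -0.64 over those of E061316 (adjusted p = 0.593). Art3 overlaps 133 exon bases of Cxcl10 on the opposite strand and averaged between 0.980 and 1.92 CPM in the 4 groups.

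Icam1 (chromosome 9, 21015985 to 21028817, plus strand) encodes ICAM-1, the surface protein to which the leukocyte integrins of Itgal, Itgam and Itgb2 bind. It was at 59.3, 60.8, 76.3 and 84.1 CPM in IL-1β 20-day libraries, against 99.9, 100.3, 99.3 and 89.3 CPM in PBS 20-day libraries. At 1 day it was at 78.1, 73.2 and 88.6 CPM with IL-1β and 84.7, 94.8 and 105 CPM with PBS. At 20 days the groups did not overlap, and at 1 day the 10k library of the IL-1β group lay above 1 PBS library. Icam1 averaged 70.1 ± 12.1 CPM with IL-1β and 97.2 ± 5.27 CPM with PBS at 20 days (SD, n = 4 each), and fell by 0.49 ± 0.10 on the log2 scale, or 1.40 times (edgeR adjusted p = 0.0104). The call held in all 14 fits that left out 1 library, and without IL-1β 20-day replicate 3 the log2 fold change was -0.50 (edgeR adjusted p = 0.0249). Taken alone, the E061316 libraries gave -0.74 (edgeR adjusted p = 0.00345), and the untagged libraries gave -0.23 and ended the call (adjusted p = 0.172). At 1 day the log2 fold change was -0.25 ± 0.12 (edgeR adjusted p = 0.276), -0.25 in each naming set. The antisense gene Gm47079 overlaps 511 exon bases of Icam1 and was not in the table.

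Traf1 and Birc3 encode partners: TRAF1 is an adaptor of TNF receptor family complexes, and cIAP2, the product of Birc3, is a ubiquitin ligase that binds TRAF proteins and limits cell death. Traf1 (chromosome 2, 34941750 to 34961772, minus strand) was at 12.7, 12.7 and 13.8 CPM in IL-1β 1-day libraries, against 25.2, 23.4 and 19.5 CPM in PBS 1-day libraries. After 20 days the level was 26.4, 28.7, 38.5 and 43.1 CPM with IL-1β and 26.7, 21.7, 25.4 and 23.8 CPM with PBS. The 3 IL-1β 1-day libraries were close to each other and below every other library, and the 2 untagged IL-1β 20-day libraries were above every other. Traf1 fell by 0.79 ± 0.16 on the log2 scale, or 1.73 times, at 1 day (edgeR adjusted p = 0.0108). That call was lost without replicate 1 or 2 of the IL-1β 1-day group (adjusted p = 0.0866 and 0.0706) or of the PBS 1-day group (0.0640 and 0.0524), where the log2 fold change stayed between -0.72 and -0.93 in all 14 such fits. At 20 days it had 0.46 ± 0.14 (edgeR adjusted p = 0.0542; 0.0173 with DESeq2; 0.0333 with edgeR without PBS 20-day replicate 1). The untagged libraries alone gave 0.73 (adjusted p = 0.0101), and E061316 gave 0.19.

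Birc3 (chromosome 9, 7848699 to 7873186, minus strand, 11634 bases from its relative Birc2) was at 38.0, 39.9 and 27.4 CPM with IL-1β and 38.3, 53.6 and 28.0 CPM with PBS at 1 day. The 20-day libraries had 51.7, 52.8, 55.4 and 65.4 CPM with IL-1β and 51.1, 57.6, 43.3 and 36.8 CPM with PBS. The groups overlapped at both durations, and the 10k library was the lowest of either 1-day group. The log2 fold change was -0.17 ± 0.17 at 1 day and 0.27 ± 0.14 at 20 days (edgeR adjusted p = 0.652 and 0.320). Over the untagged libraries alone it was called higher at 20 days (0.59, adjusted p = 0.0335), where E061316 gave -0.06. Over the 14 libraries, Pearson's r of Birc3 with the log2 sum of the gate and stem cell genes was 0.75. PBS 20-day replicate 4 was the lowest 20-day library for both, and the part of this in the Birc3 values was not tested.

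**Figure D2:**
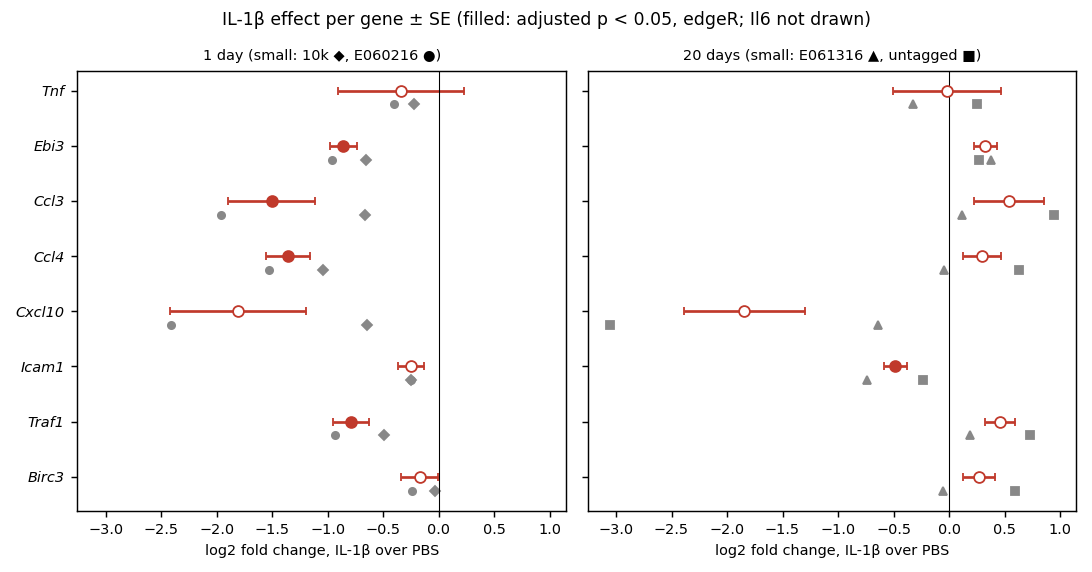
Log2 fold change of IL-1β over PBS with its SE (horizontal axes) for 8 of the 9 genes at 1 day and 20 days, filled where the edgeR adjusted p was below 0.05, with the value within each naming set as a small grey marker; Il6 is not drawn because its PBS libraries were near zero. Ebi3, Ccl3, Ccl4 and Traf1 are filled below zero at 1 day and open above zero at 20 days, while Icam1 is filled below zero at 20 days.

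Whether IL-1β acted differently after 20 days than after 1 day was tested as the difference between both effects. The 20-day effect was higher than the 1-day effect for 3 of the 9 genes (Ebi3, Ccl4 and Traf1), against 1.15% of all genes, and for none was it lower. The difference was 1.65 ± 0.26 (log2) for Ccl4 (edgeR adjusted p = 0.0107), 1.25 ± 0.21 for Traf1 (adjusted p = 0.0137) and 1.18 ± 0.16 for Ebi3 (adjusted p = 0.00553). In these genes the IL-1β 1-day libraries were the low group, and the IL-1β 20-day means were the highest of the 4 groups without passing the 20-day test. Ccl3 had a difference of 2.05 ± 0.50 (adjusted p = 0.050037), which missed the threshold of 0.05, and Cxcl10 had -0.04 ± 0.82 (adjusted p = 0.990), its 1-day and 20-day effects being nearly equal with wide errors. The Traf1 difference was lost without replicate 1 or 2 of the IL-1β 1-day group (adjusted p = 0.0653 and 0.0562), and none of the 3 passed in a fit without the naming set term (adjusted p = 0.0802 for Ebi3, 0.151 for Ccl4 and 0.0512 for Traf1). With same-numbered libraries of a naming set as blocks, the Ccl4 and Traf1 differences did not pass edgeR's test, while that of Ebi3 did.

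Markers of other cell types differed between some of the same groups. The 8 monocyte and dendritic cell markers summed to 9.32 to 18.3 CPM with IL-1β and 21.7 to 32.3 CPM with PBS at 1 day, and to 18.5 to 54.2 CPM with IL-1β and 21.3 to 32.2 CPM with PBS at 20 days, where 54.2 CPM was IL-1β 20-day replicate 3. Most of that sum was Fcer1g, which had reads in every library, while Siglech was at 0 in 12 libraries, Itgax in 9 and Ly6c2 in 8. The 14 macrophage markers, with Siglec1 at 0 in 11 libraries, summed to 49.9 to 66.6 CPM with IL-1β and 68.5 to 76.0 CPM with PBS at 1 day, and to 59.8 to 70.7 CPM with IL-1β and 49.6 to 78.8 CPM with PBS at 20 days. Axl and Cd68 led that sum, and its members did not move together. At 1 day Cd68 was higher with IL-1β (16.37 to 20.78 CPM, against 12.19 to 12.77 with PBS). C1qb was lower at 1 day (1.53 to 4.97 CPM with IL-1β, against 5.36 to 6.54 with PBS). At 20 days Cd68 was higher as well (20.12 to 31.01 CPM with IL-1β, against 11.07 to 15.05 with PBS). Cd5l was lower at 20 days, with at most 0.251 CPM with IL-1β and at least 0.437 CPM with PBS. The monocyte and macrophage sums were lower with IL-1β at 1 day, as were Ebi3, Ccl3, Ccl4 and Traf1, and their part in those results was not tested. At 20 days the sum of 5 T and NK cell markers in the table was 86.6 to 107 CPM with IL-1β and 42.5 to 56.6 CPM with PBS. Nearly all of it was Nkg7 and Klrb1c, while Cd3g was at 0 in 13 libraries, Cd3d in 7 and Trac in 5, each with at most 13 counts in any library. The 7 stromal and endothelial markers summed to 159 to 177 CPM with IL-1β and 68.2 to 118 CPM with PBS, led by Pecam1, with Lepr at 0 in 8 libraries and Cdh5 in 5. The 7 B cell markers in the table summed to 51.2 to 59.4 CPM with IL-1β and 41.3 to 51.7 CPM with PBS, mostly Cd79b, with Ms4a1 at 0 in 10 libraries. The 5 mast cell and basophil markers in the table summed to 8.41 to 26.9 CPM with IL-1β and 4.41 to 7.88 CPM with PBS, with Mcpt8 and Prss34 at 0 in 12 libraries each. The part of these in the 20-day values was not tested.

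Without IL-1β, the 20-day and 1-day PBS groups were compared in a fit of the 4 group means. None of the 9 genes was called, none had an unadjusted p below 0.05 and DESeq2 called none, against 0% of all genes called by edgeR, 676 at an unadjusted p below 0.05 and 9 by DESeq2. Log2 fold changes of PBS at 20 days over PBS at 1 day lay between -0.02 and 0.24 for Ebi3, Ccl3, Ccl4, Cxcl10, Icam1, Traf1 and Birc3. Tnf had -1.24 ± 0.90, and 0.25 without the 10k set. The naming sets lie within durations, so duration and naming set cannot be told apart here.

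Levels were also compared between genes per kilobase of merged exons (GENCODE M21), as RPKM. Ebi3 had the highest mean of the 9 in all 4 groups (19.2 ± 3.29 with IL-1β and 34.6 ± 3.01 with PBS at 1 day, 46.0 ± 7.15 with IL-1β and 36.9 ± 7.62 with PBS at 20 days, SD), and Il6 the lowest (at most 0.268 ± 0.117, with IL-1β at 20 days). In the IL-1β 1-day group Icam1 followed at 18.3 ± 1.81 RPKM, then Ccl4 at 11.9 ± 5.85, Birc3 at 7.0 ± 1.35, Ccl3 at 1.57 ± 0.999, Tnf at 1.52 ± 1.81, Traf1 at 1.48 ± 0.0698 and Cxcl10 at 0.566 ± 0.339. Neighbours in that order that differed by less than their SD were Ebi3 and Icam1, Ccl4 and Birc3, and Ccl3, Tnf and Traf1. In the other 3 groups Ccl4 stood second and Icam1 behind it, at 29.1 ± 8.02 and 21.8 ± 2.34 RPKM in PBS 1-day libraries, 36.8 ± 13.3 and 16.1 ± 2.76 RPKM in IL-1β 20-day libraries, and 28.7 ± 4.85 and 22.3 ± 1.21 RPKM in PBS 20-day libraries. Ebi3 and Ccl4 differed by less than their SD in the PBS 1-day and IL-1β 20-day groups, and Ccl4 and Icam1 in the PBS 1-day group. Birc3 came next in each (7.97 ± 2.57, 11.2 ± 1.25 and 9.42 ± 1.81 RPKM in the same order), followed by Ccl3 and Traf1. Among the lower genes, neighbours within their SD were Traf1, Tnf and Cxcl10 in PBS 1-day libraries, Ccl3 and Traf1 as well as Tnf, Cxcl10 and Il6 in IL-1β 20-day libraries, and Traf1, Cxcl10 and Tnf in PBS 20-day libraries.

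**Figure D3:**
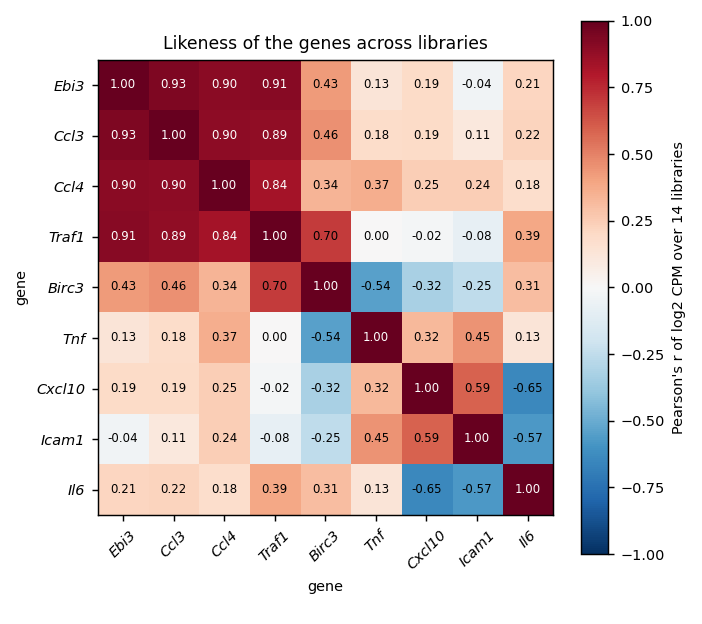
Pearson's r of log2 CPM over the 14 libraries for each pair of the 9 genes (both axes: genes; colour and number: r). Ebi3, Ccl3, Ccl4 and Traf1 form a block with r of 0.84 to 0.93, while Il6 has r of -0.65 with Cxcl10 and -0.57 with Icam1.

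Across the 14 libraries, Ebi3, Ccl3, Ccl4 and Traf1 followed each other most closely, with Pearson's r of log2 CPM between 0.84 (Ccl4 and Traf1) and 0.93 (Ebi3 and Ccl3). Birc3 was nearest to Traf1 (0.70), Icam1 nearest to Cxcl10 (0.59), and Il6 ran opposite to Cxcl10 (-0.65). The libraries share treatment, naming set and depth, so these values describe the 14 libraries and were not tested. Among 13315 other genes, those most like Ebi3 were Neurl3 (0.95), Dlgap4 (0.95) and Unc93b1 (0.95), those most like Ccl3 were Lgals4 (0.95), Neurl3 (0.94) and Dennd1c (0.94), and those most like Ccl4 were Tnip1 (0.95), Atp13a2 (0.94) and Apoe (0.93). Traf1 was most like Rap1gap (0.95), Ganc (0.95) and Dlgap4 (0.95), and Birc3 most like Ifnar1 (0.97), Fmo5 (0.96) and Dcaf8 (0.96). Neurl3 was thus among the nearest genes of both Ebi3 and Ccl3, and Dlgap4 of both Ebi3 and Traf1. Cxcl10 was most like Myl10 (0.91), H2-Eb1 (0.89) and Cd74 (0.88); H2-Eb1 and Cd74 encode an MHC class II chain and its invariant chain. Icam1 was most like Usp36 (0.92), Sox8 (0.92) and Cpxm1 (0.89). Tnf was most like Nr4a1 (0.87), Zfp830 (0.86) and Plk3 (0.86), of which Nr4a1 and Plk3 are known as immediate early or stress-response genes. For Il6, with 7 libraries at or under the floor, the nearest were Gucd1 (0.88), Robo3 (0.86) and Accs (0.86).

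**Figure D4:**
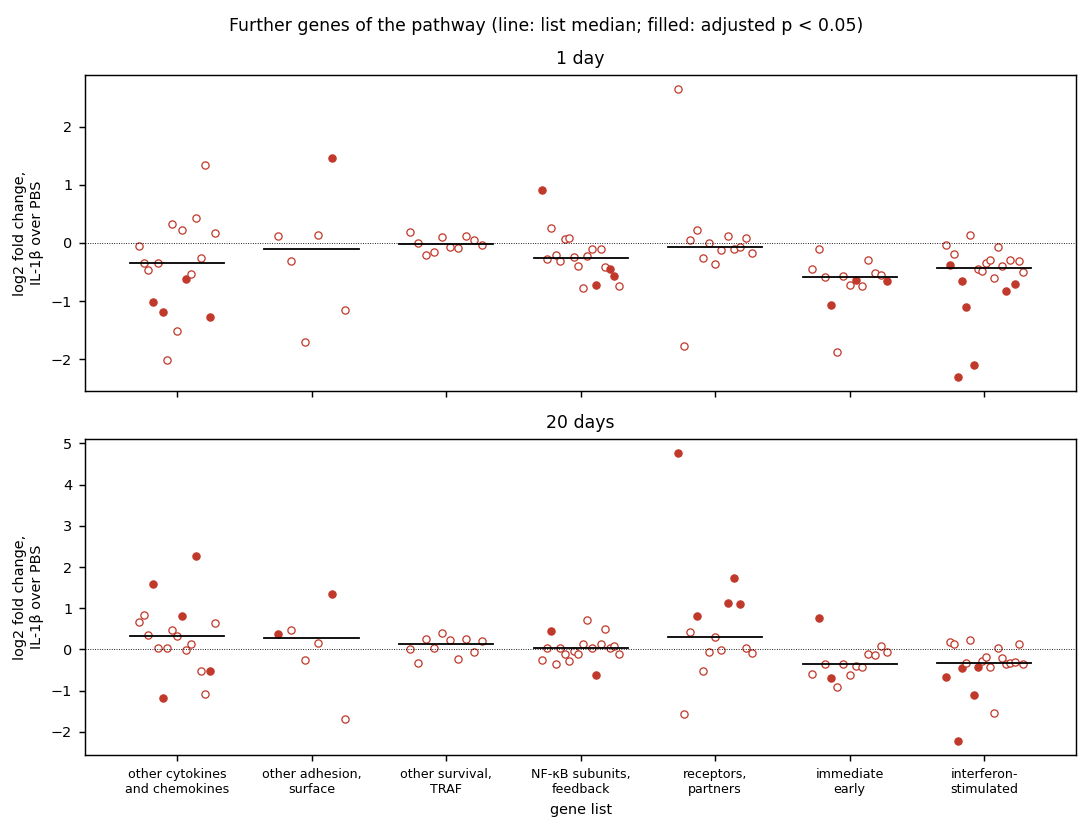
Log2 fold change of IL-1β over PBS (vertical axes) for the tested genes of 7 further lists at 1 day (top) and 20 days (bottom), filled where the edgeR adjusted p was below 0.05, with the list median as a line. The 7 called interferon-stimulated genes at 1 day and 5 at 20 days all lie below zero, and the 5 called receptor and partner genes at 20 days all lie above it; the highest of these, Ccr1, rests on 3 PBS counts.

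The pathway around the 9 genes was described by lists of further genes, whose counts stand against 4.35% of all genes called at 1 day and 7.46% at 20 days. Like the 9 genes, the lists were chosen with earlier results of these data known. Of 30 other cytokine and chemokine genes, 17 could be tested. At 1 day 4 fell and none rose (median log2 fold change -0.35), among them Ltb, Il15, a growth factor for lymphocytes and NK cells (-0.62 ± 0.10, edgeR adjusted p = 0.00352), and Cx3cl1, which encodes fractalkine (-1.19 ± 0.21, adjusted p = 0.00504). At 20 days 3 rose and 2 fell (median 0.33). Ccl9, a chemokine gene, averaged 15.5 ± 3.47 CPM with IL-1β and 5.32 ± 2.04 CPM with PBS at 20 days and rose by 1.59 ± 0.23 (edgeR adjusted p = 0.000665), while it was at 2.02 ± 0.453 CPM with IL-1β and 4.13 ± 1.55 CPM with PBS at 1 day. The difference between both Ccl9 effects was 2.61 ± 0.36 (adjusted p = 0.00553). Cx3cl1 fell again (-1.19 ± 0.18, adjusted p = 0.00127).

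Of the genes whose products pair with EBI3, Il12a rose at 20 days and Il27 passed neither test. Il12a averaged 43.6 ± 6.05 CPM with IL-1β and 24.8 ± 3.59 CPM with PBS at 20 days (SD, n = 4 each), a rise of 0.82 ± 0.14 (log2, edgeR adjusted p = 0.00225), whereas at 1 day it had 0.21 ± 0.16 (adjusted p = 0.524). Il27 was low, at 2.77 ± 0.435 CPM with IL-1β and 4.08 ± 1.16 CPM with PBS at 20 days, (edgeR adjusted p = 0.774 at 1 day and 0.384 at 20 days). Of the 13 receptors and partners of the 9 genes' products, all tested, 5 were called higher at 20 days and none lower (median 0.30), 1 of them Ccr1, from which nothing is read, while at 1 day none was called by edgeR or DESeq2 and none had an unadjusted p below 0.05. The integrin genes whose products bind ICAM-1 were 3 of the 5: Itgb2 averaged 119 ± 7.66 CPM with IL-1β and 55.1 ± 5.95 CPM with PBS and rose by 1.11 ± 0.10 (edgeR adjusted p = 2.55e-05), Itgam rose by 1.73 ± 0.32 (adjusted p = 0.00427) and Itgal by 1.12 ± 0.25 (adjusted p = 0.0146). They rose at the duration at which Icam1 fell. Itgam was at 48.6, 37.7, 51.9 and 53.0 CPM in IL-1β 20-day libraries, against 8.16, 20.5, 20.9 and 7.69 CPM in PBS 20-day libraries. Ccr1, a receptor of the Ccl3 product, had 100 counts with IL-1β and 3 with PBS at 20 days, a ratio of 32.0 (exact 95% interval 10.6 to 158, counting error only), and all 3 PBS counts lay in 1 library. It passed the filter through its IL-1β libraries, so its 20-day groups had to differ. The receptors of TNF were abundant, with Tnfrsf1a at 118 CPM and Tnfrsf1b at 153 CPM with IL-1β at 20 days, against 115 and 162 CPM with PBS. Il6st was at 54.1 CPM with IL-1β and 56.8 CPM with PBS, and Il6ra at 15.5 CPM with IL-1β and 12.5 CPM with PBS, at 20 days. Cxcr3, the receptor gene for the Cxcl10 product, averaged 0.584 CPM with IL-1β and 0.434 CPM with PBS at 20 days.

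Of 10 other adhesion and surface genes 6 were tested. Selp, which encodes P-selectin, averaged 100.1 ± 29.1 CPM with IL-1β and 36.3 ± 14.1 CPM with PBS at 1 day and rose by 1.46 ± 0.19 (log2, edgeR adjusted p = 0.000619), and at 20 days it rose by 1.35 ± 0.16 (adjusted p = 0.000210), opposite in sign to Icam1. Cd44, the gene of a hyaluronan receptor, also rose at 20 days (0.38 ± 0.10, adjusted p = 0.0274), and no gene of the list was called lower at either duration. Vcam1 had -1.15 ± 0.69 at 1 day and -1.68 ± 0.69 at 20 days, without passing edgeR's test (adjusted p = 0.406 and 0.179). Of 13 other survival and TRAF genes 10 were tested and none was called, with 0 at an unadjusted p below 0.05 and 0 by DESeq2 at 1 day, and 4 and 1 at 20 days. The list medians were -0.02 at 1 day and 0.12 at 20 days.

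Among 18 tested genes of NF-κB subunits and feedback regulators, 1 rose and 3 fell at 1 day (median -0.26), against 4.35% of all genes called. At 20 days 1 rose and 1 fell (median 0.03), which is near the 7.46% of all genes called. Bcl3, a nuclear IκB protein gene, rose at 1 day (0.90 ± 0.16, edgeR adjusted p = 0.00544), and its 20-day effect was lower than its 1-day effect by 1.17 ± 0.22 (adjusted p = 0.0202). Relb, a subunit of the non-canonical pathway, fell at both durations (-0.72 ± 0.16, adjusted p = 0.0181 at 1 day; -0.61 ± 0.14, adjusted p = 0.0140 at 20 days), and Tnip3 fell at 1 day (-0.57 ± 0.12, adjusted p = 0.0143). Nfkb1, the gene of p105 and p50, rose at 20 days (0.46 ± 0.07, adjusted p = 0.00132).

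Of 20 interferon-stimulated genes, to which Cxcl10 is related by its induction, 7 fell at 1 day and 5 at 20 days and none rose (medians -0.43 and -0.34). Gbp4, a guanylate-binding protein gene, fell at both (-2.31 ± 0.32, edgeR adjusted p = 0.00105 at 1 day; -2.22 ± 0.27, adjusted p = 0.000235 at 20 days). Ifit3 fell at both as well (-2.10 ± 0.33 at 1 day, adjusted p = 0.00220; -1.11 ± 0.28 at 20 days, adjusted p = 0.0258), Ifit1 at 1 day (-1.10 ± 0.15, adjusted p = 0.00105) and Bst2 at 20 days (-0.67 ± 0.13, adjusted p = 0.00753). Of 13 tested immediate early genes, which respond within minutes to stimulation or to handling, 3 fell at 1 day (Egr1, Ier2 and Zfp36), and 1 rose (Btg2) and 1 fell (Egr1) at 20 days. Their sums ran with the naming sets: 10372 CPM with IL-1β and 15565 CPM with PBS in the 10k set, against 2215 and 3438 CPM with IL-1β and 3875 and 5141 CPM with PBS in E060216. At 20 days they were 11316 to 12624 CPM in the untagged set and 4343 to 7852 CPM in E061316. Tnf was highest in the same 10k libraries. Over the 14 libraries, Pearson's r with the log2 immediate early sum was 0.77 for Ccl4, 0.71 for Ccl3, 0.62 for Ebi3, 0.62 for Tnf and 0.44 for Traf1. The part of the immediate early genes in the levels of these 5 genes was not tested.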

How the data were processed

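RNA of sorted bone marrow SLAM cells was sequenced in 14 libraries. Per the labels' protocols, cDNA was amplified with SMARTer low-input chemistry, Nextera XT libraries were made, which carry no strand and no molecular identifiers, and single-end reads were taken on a HiSeq2500. The deposited file holds raw gene counts in 1 table. In no stated role or order, the submitters' processing notes list DESeq2 1.12.3, Cuffdiff, Cufflinks 2.0.2, HTSeq 0.6.1, STAR 2.4.2a, Trimmomatic 0.32 and the GRCm38.p4 build. The counting annotation is not given in the sources used here. Counting without strand and how shared reads were treated can alter values of overlapping genes. GENCODE M21 supplied positions and exon lengths, and RefSeq GRCm38.p6 the promoters.

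The deposited counts were analysed with edgeR 4.0.16 (R 4.3.3; TMM scaling, a filter at a minimum count of 10, robust quasi-likelihood fit of all 14 libraries with the naming set as covariate and 8 residual degrees of freedom, two-sided, Benjamini-Hochberg adjustment over 15466 genes, threshold 0.05). For the PBS groups the 4 group means were fitted. The SE is the log2 fold change over the square root of F. Correlations used log2 CPM with a prior count of 2. DESeq2 1.42.0, other scalings, no filter, no naming set term, naming sets alone and leaving out each library were alternatives; the scripts were tested on simulated data. Within-group library pairs (18) differed by more than sampling noise (chi-square per degree of freedom 11.2 to 81.4). Named genes were all 9, the 3 called genes with the smallest p of each further list in each comparison, receptors and partners (1 of which is not reported here), and the 3 genes most like each of the 9; Ltb at its place beside Tnf, and Itgal and Ccr1 as partners, came under the same rule. The 9 genes and the lists were chosen with earlier results of these data known.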

Additional observations from a re-analysis of the deposited data

Results flagged for a closer look

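Of 18 groups of 4 libraries checked for a library that stands apart, 2 had one, where chance gives about 1 in 20. Il6 stood at 0.177 CPM (4 counts) in PBS 20-day replicate 1, where the other 3 PBS 20-day libraries had none, so that any count would have stood apart and the value carries no weight. Icam1 stood at 89.3 CPM in PBS 20-day replicate 4, where the other 3 PBS 20-day libraries lay between 99.3 and 100.3 CPM. This lowest PBS library was still above the highest IL-1β 20-day library, at 84.1 CPM.

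The effect of IL-1β differed between 20 days and 1 day in 3 of the 9 genes by edgeR's test of the difference itself. The 20-day minus 1-day log2 fold change was 1.65 for Ccl4, 1.25 for Traf1 and 1.18 for Ebi3, and the IL-1β 1-day group was the low one in each. The naming sets lie within durations, so the difference between durations and that between sets cannot be told apart.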

How the results depend on the processing

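At 1 day 4 of the 9 genes were called, 2 without the naming set term (Ebi3 and Traf1, with 290 of 15466 genes called), 0 within the 10k set (1 library against 1, with the spread taken from the other sets, and 2 of 15466 genes called) and 2 to 4 over the 14 leave-one-out fits. At 20 days 1 was called, 4 with DESeq2 (1815 of 14722 genes), 2 without the naming set term (525 of 15466), 2 without the 10k set (chosen after seeing the data, 1162 of 15903), 5 within the untagged set (Ccl4, Cxcl10, Traf1, Birc3 and Il6, which passed the filter through its IL-1β libraries; 1979 of 15466 genes) and 1 to 3 over the leave-one-out fits. Of the 3 differences between durations, 0 passed without the naming set term (23 of 15466 genes) and 1 with the replicate block (Ebi3, adjusted p = 0.0415; Ccl4 0.0509, Traf1 0.0716). The cause was not tested. The PBS comparison gave 0 under every alternative run. No called result changed sign. Of 798 values of single genes, 740 kept their status as called or not called, 30 lost a call and 28 gained one. The 740 include values of genes called neither in the main fit nor in the alternative, so they are no count of calls that held.

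Same-numbered libraries deviated together with correlations of -0.03 to 0.27, and 9 of 14 correlated best with their own number. No label says that a number marks a shared batch, and the main fit did not treat the numbers as pairs. Whether same-numbered libraries share an origin was not tested. With the replicate block 383 genes were called at 1 day, 672 at 20 days and 23 for the difference, against 672, 1154 and 331 without it; 3 of the 9 were called at 1 day (Ccl3 had 0.0841).

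Depth limits Il6 most: with 0 to 25 counts a library, its fitted fold change is no measure of its size, and DESeq2 gave it no adjusted p for the IL-1β comparisons. When the libraries of 1 duration alone were fitted, Il6 was not tested.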
